A study of Mus musculus with 185 samples.

Results

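The genes described here are 10 enzymes of amino acid metabolism, grouped by the amino acid they handle: Prodh and Aldh4a1 for proline, Cbs for sulfur amino acids, Glul and Glud1 for glutamine and glutamate, Gldc and Phgdh for glycine and serine, Aass for lysine, and Bckdha and Bckdk for branched-chain amino acids. They are 10 of 57010 genes of the count matrix, and all 10 were found and passed the filter on low counts in every comparison. The set was selected on differences in CPM between the diets of these same mice, which were known when it was named. The differences given for its members, at 24 h and at 16 h, are therefore a description and support nothing on their own. Brain tissue was taken from male C57BL/6J mice, an inbred strain, 8 weeks old and carrying no engineered allele. The 16 h study had 18 mice in 9 cages of 2, and 3 cages each stayed on chow, were switched to a high-fat diet (HFD) or were fasted for 16 h, which gives 6 mice per diet. The 24 h study kept its mice alone, 9 on chow and 10 fasted for 24 h. Each mouse gave 5 bulk RNA-seq libraries of brain regions: hypothalamus, hippocampus, superior colliculus and inferior colliculus in both studies, with frontal cortex at 16 h and zona incerta at 24 h. The matrix heads its columns by mouse, so the 5 columns of a mouse were added up, the mouse was the replicate, and no value is given by region. Levels are given as CPM, the counts of a gene scaled to 1000000 counts of a mouse or column.

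A mouse had between 57962237 and 161577364 counts, and the least covered of the 10 genes in any mouse, Aass, had 274 to 1098 counts per mouse at 24 h. Mitochondrial genes took 3.78% to 4.98% of the counts of a mouse at 16 h and 8.57% to 16.7% at 24 h. Sequencing run, housing and 1 of the 5 regions also changed with the study, so a difference in level between the studies cannot be told apart from these. Of the columns, 158 passed and 27 failed limits on depth (1000000 counts, and 16000 genes expected to show in a draw of 500000 counts). The failed columns stayed in the sums per mouse. The study flagged further libraries as outliers by principal component analysis. At 16 h these were 3 of chow, 2 of fasted and 3 of HFD mice. At 24 h they were 2 of chow and 2 of fasted mice, and all of them stayed in the sums. At 24 h, 11 of 45 libraries of chow mice and 13 of 50 of fasted mice were run on a separate SP flowcell, at 0 to 2 per mouse in either group. The paper detected no RNA in the samples of this block and discarded it as defective. Its counts are in the deposited matrix and stayed in the sums, so they enter the CPM and fold changes at 24 h. With the columns within the depth limits alone, Prodh, Cbs and Glul were still called higher at 24 h. Some columns of the block passed these limits. All 12 neuron and all 12 astrocyte markers were detected in every mouse. The summed level of 7 pituitary markers was 3.05 to 11.0 CPM at 16 h, and at 24 h it reached 1134 CPM in chow mouse 1431 and 253 and 269 CPM in fasted mice 1435 and 1445. Leaving out any of these mice left 5 members called at 24 h. The submitters noted that the superior colliculus samples of chow mouse 1423 and fasted mouse 1454 lie in each other's tubes. The paper states that the sample information was corrected for this exchange. Whether the headings of the matrix follow that correction was not tested. An alternative for swapped tubes left out mice 1423, 1454 and 1455. Its log2 fold changes at 24 h were 0.85 for Prodh, 0.74 for Cbs and 0.68 for Glul.

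Amino acids in the brain serve as transmitters, as building blocks and as fuel. Proline dehydrogenase (Prodh) and Aldh4a1 turn proline into glutamate inside mitochondria, and glutamate dehydrogenase (Glud1) links glutamate to the citric acid cycle. Glutamine synthetase (Glul), in the brain mainly an enzyme of astrocytes, makes glutamine from glutamate and ammonia. Cbs joins homocysteine and serine in the entry step of transsulfuration, the route from methionine to cysteine. Phgdh opens the synthesis of serine from a product of glycolysis, and Gldc is the decarboxylase of the mitochondrial glycine cleavage system. Aass carries out the opening steps of lysine breakdown. Bckdha is a subunit of the branched-chain ketoacid dehydrogenase complex, and Bckdk is the kinase that switches this complex off.

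Prodh, Cbs and Glul had the largest differences between fasted and chow mice at 24 h, and the 250 bases before their start sites are shown to place motifs that were searched in the promoters of all members. The sequences are RefSeq promoter windows of GRCm38.p6, and each was found once, letter for letter, on its chromosome in GRCm39, whose coordinates are given. Capitals mark CACGTG (an E-box) and CCAAT or its reverse complement ATTGG.
Prodh: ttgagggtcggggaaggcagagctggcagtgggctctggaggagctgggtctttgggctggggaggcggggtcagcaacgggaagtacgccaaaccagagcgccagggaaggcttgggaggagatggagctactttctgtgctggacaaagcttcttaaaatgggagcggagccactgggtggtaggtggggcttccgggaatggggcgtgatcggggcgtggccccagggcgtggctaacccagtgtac
Cbs: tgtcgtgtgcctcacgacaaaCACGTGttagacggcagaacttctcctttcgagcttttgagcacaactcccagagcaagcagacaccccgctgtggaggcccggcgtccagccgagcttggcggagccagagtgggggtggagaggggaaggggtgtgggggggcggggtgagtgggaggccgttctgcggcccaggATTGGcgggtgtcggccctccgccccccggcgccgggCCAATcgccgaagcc
Glul: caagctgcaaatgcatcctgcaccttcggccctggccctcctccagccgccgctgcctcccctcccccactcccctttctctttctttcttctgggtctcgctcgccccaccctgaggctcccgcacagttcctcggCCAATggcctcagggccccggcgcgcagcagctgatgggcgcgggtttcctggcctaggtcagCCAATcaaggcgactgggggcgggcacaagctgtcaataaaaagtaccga
These stretches lie at chr16:17907055-17907304 (minus strand), chr17:31856180-31856429 (minus strand) and chr1:153775425-153775674 (plus strand). Counted from the start site, the Cbs window held an E-box at position -229 and CCAAT on one strand at -52 and on the other at -15. The Glul window held CCAAT at -113 and -50, and the Prodh window held neither motif. All 10 members had a window of 250 bases before and 50 after the start site. The start used lay downstream of the outermost GENCODE start by 1013 bases for Prodh, 467 for Cbs and 7762 for Phgdh. Other annotated starts of the members were not searched. Over both strands, CCAAT was found in 7 of 10 members (Aldh4a1, Cbs, Glul, Gldc, Phgdh, Aass and Bckdk) and in 37.4% of 32851 promoters in the table. CACGTG was found in Cbs alone and in 7.15% of all promoters. The glucocorticoid receptor dimer site (GNACA, any 3 bases, TGTNC; 0.475% of promoters), the C/EBP-ATF element TGATGCAA (0.895%) and the cAMP response element TGACGTCA (1.79%) were in none of the 10 windows. No 2 matches overlapped.

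On chow, levels per length of exon spanned a wide range, from Glul at 325 ± 27.4 CPM per kb down to Aass at 1.25 ± 0.0562 CPM per kb (mean ± SD, n = 6 mice at 16 h). Glud1 came after Glul with 41.2 ± 3.15 CPM per kb, followed by Phgdh with 9.79 ± 0.815 and Bckdk with 5.55 ± 0.237 CPM per kb, and none of these 4 overlapped its neighbour in the order. Prodh (2.86 ± 0.202 CPM per kb), Cbs (2.86 ± 0.108), Aldh4a1 (2.81 ± 0.192), Gldc (2.06 ± 0.414) and Bckdha (1.54 ± 0.0792) followed, and neighbours among these 5 overlapped in the range of their mice, whereas Bckdha did not overlap Aass below it. The same genes held the upper 4 places in chow mice of the 24 h study, with Glul at 368 ± 30.9, Glud1 at 44.5 ± 3.07, Phgdh at 11.1 ± 1.26 and Bckdk at 4.98 ± 0.230 CPM per kb (SD, n = 9). Below them, Cbs, Prodh, Aldh4a1, Bckdha, Gldc and Aass all overlapped their neighbours there. The order depends on the length used, that of all annotated exons of a gene merged (2826 bases for Phgdh, 10998 for Prodh, 11331 for Cbs). In mean CPM alone on chow at 16 h, Phgdh (27.7) lay below Prodh (31.5), Cbs (32.4) and Bckdk (32.5). On chow at 24 h, Phgdh (31.4) lay above Prodh (24.2), Cbs (28.5) and Bckdk (29.2) in CPM as well.

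**Figure D1:**
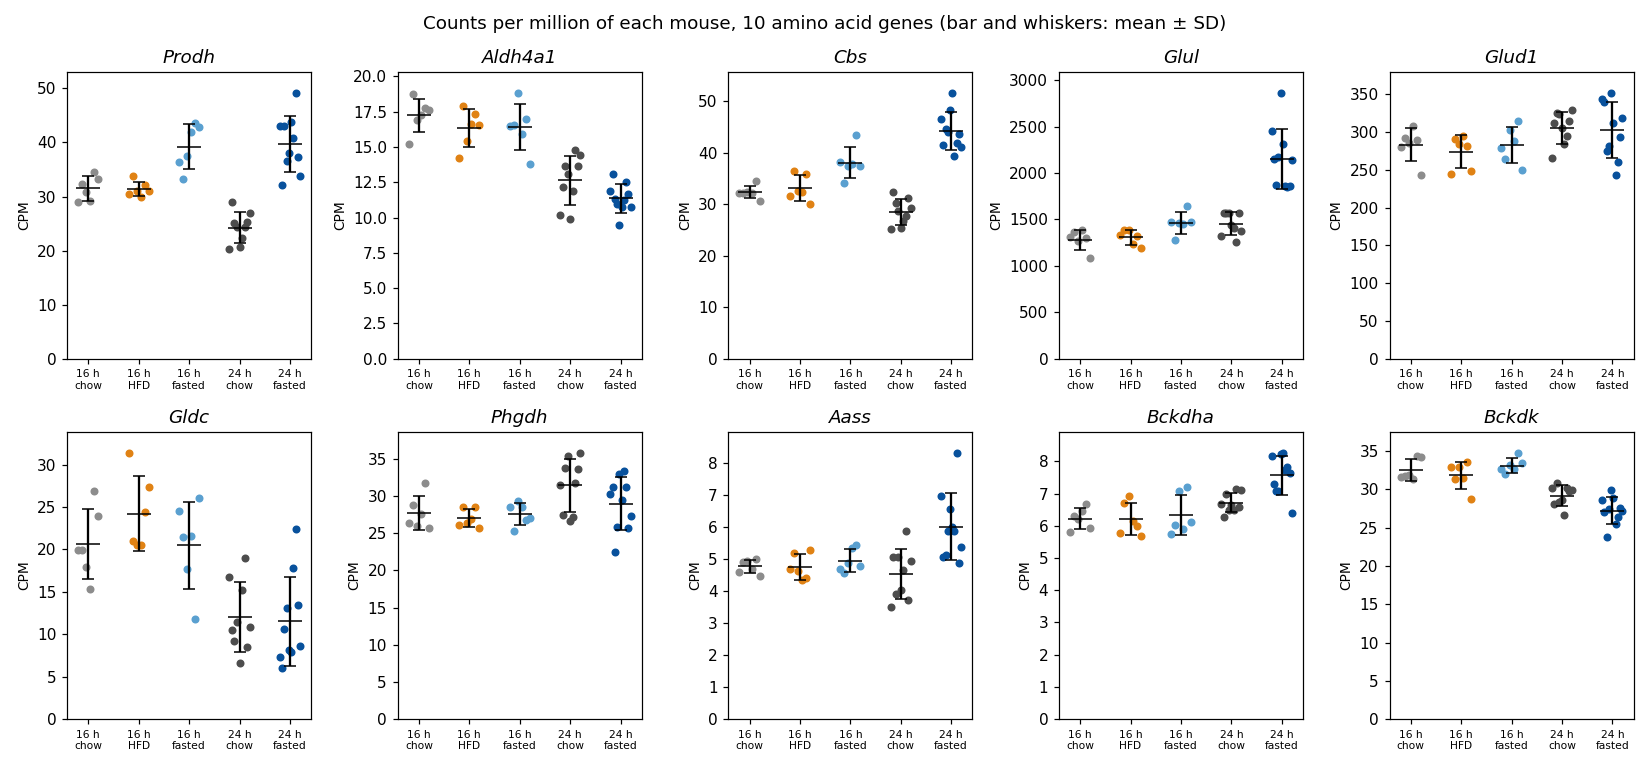
CPM (vertical axis, from 0) of each mouse for the 10 genes, by study and diet (horizontal axis). Points are mice (n = 6 per diet at 16 h, 9 on chow and 10 fasted at 24 h), and the bar with whiskers is the mean ± SD. At 24 h, the fasted and chow mice were fully apart for Prodh, Cbs and Glul, whereas all other pairs of groups within a study overlapped in all 10 genes.

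After 24 h of fasting, 5 of the 10 members were called higher (Prodh, Cbs, Glul, Aass and Bckdha) and 0 were called lower by edgeR's quasi-likelihood test at an adjusted p under 0.05. Over all 29011 genes tested, 11.4% were called, 5.78% higher and 5.62% lower. The median log2 fold change was 0.13 over the 10 members and -0.0044 over all genes. CPM of fasted and chow mice did not overlap in 3 of the 10 members, against 1.3% of all genes. Since the members were chosen with this comparison known, nothing is read from these counts.

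For proline, Prodh (chr16:17877575-17908067, GRCm39, minus strand) had 20.3 CPM in the lowest, 24.4 in the median and 29.0 in the highest chow mouse of the 24 h study, and 32.1, 39.4 and 49.1 CPM in the fasted mice. All 10 fasted mice were above all 9 chow mice. The log2 fold change was 0.77 ± 0.07 (SE), or 70.5% more. Of its exon bases, 293 lie opposite exons of Dgcr6, and because the strand setting of the counts is not given in the sources used here, reads of that stretch cannot be assigned between the genes. Aldh4a1 (chr4:139350146-139377003, plus strand), which acts on the product of Prodh, did not show this difference. Chow mice had 9.90, 13.1 and 14.8 CPM and fasted mice 9.44, 11.3 and 13.1 CPM (lowest, median and highest), so the groups overlapped and no fasted mouse lay above the chow range. Its log2 fold change was -0.10 ± 0.06 (95% interval -0.21 to 0.02), and 1595 of its exon bases are shared with the annotated gene Gm21969 on the same strand.

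Cbs, the transsulfuration enzyme (chr17:31827868-31856646, minus strand), had 25.2, 28.6 and 32.4 CPM in the lowest, median and highest chow mouse and 39.3, 43.9 and 51.6 CPM in the fasted mice. As for Prodh, every fasted mouse was above every chow mouse. The log2 fold change was 0.69 ± 0.07, or 61.7% more.

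Glul (chr1:153775690-153785469, plus strand), the most abundant of the 10 genes, had 1257, 1439.6 and 1573 CPM on chow and 1851, 2147 and 2860.2 CPM after the fast. The fasted mice were again all above the chow mice, with a log2 fold change of 0.63 ± 0.11, or 54.4% more. Exons of Teddm2 lie opposite 147 of its exon bases. Glud1 (chr14:34032583-34067642, plus strand), which breaks down glutamate, had 266, 311 and 330 CPM on chow and 244, 303 and 352 CPM after the fast. The fasted range of Glud1 enclosed the chow range, with 3 fasted mice above and 2 below it, and the log2 fold change was 0.04 ± 0.08 (95% interval -0.12 to 0.20). Exons of Shld2 lie opposite 717 exon bases of Glud1.

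Gldc (chr19:30071975-30152871, minus strand) varied most between mice of a group. It had 6.62, 10.8 and 19.0 CPM on chow and 6.01, 9.61 and 22.4 CPM after the fast, with a log2 fold change of -0.01 ± 0.23 and a 95% interval from -0.47 to 0.44, too wide to exclude a sizable difference in either direction. With equal weight per column the log2 fold change of Gldc was -0.39, and it was not called. That alternative also left out columns outside the depth limits and used limma on log2(CPM + 1) without TMM factors. Of the columns within the depth limits, 1 or more above 20 CPM were found in 5 of 9 chow mice (33.1 to 44.1 CPM) and in 7 of 10 fasted mice (27.2 to 44.8 CPM), so the mice differ in whether a column rich in Gldc of adequate depth entered their sum. Apart from that of mouse 1453 (44.8 CPM), these fasted columns had 27.2 to 30.8 CPM, below all of the chow ones. This was not tested. Phgdh (chr3:98220484-98255047, minus strand) had 26.6, 31.8 and 35.7 CPM on chow and 22.5, 29.8 and 33.4 CPM after the fast. The ranges overlapped, 3 fasted mice lay below the chow range, and the log2 fold change was -0.06 ± 0.07 (95% interval -0.21 to 0.09).

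Aass (chr6:23072172-23132991, minus strand), the lysine enzyme, had 3.52, 4.66 and 5.89 CPM on chow and 4.87, 5.89 and 8.31 CPM after the fast. The groups overlapped, with 5 of 10 fasted mice above all chow mice, and the log2 fold change was 0.46 ± 0.11, or 37.8% more. The mouse highest in Aass in either group was also the highest in the summed level of 9 markers of ependyma and choroid plexus, with 1799 CPM in chow mouse 1443 and 4137 CPM in fasted mouse 1453, against a median of 84.0 CPM on chow and 66.0 CPM after the fast. Without these 2 mice, the log2 fold change of Aass was 0.47, with Aass still called. Without the 5 mice whose libraries carry a tissue note of the submitters (a doubtful hypothalamus, a poor inferior colliculus or swapped tubes), it was 0.39 and no longer called.

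For branched-chain amino acids, Bckdha (chr7:25326168-25358420, minus strand) had 6.27, 6.66 and 7.14 CPM on chow and 6.40, 7.69 and 8.25 CPM after the fast. It was above all chow mice in 7 of 10 fasted mice, and the log2 fold change was 0.23 ± 0.06, or 17.1% more. With equal weight for each column the log2 fold change of Bckdha was 0.10, and without the 5 mice with a tissue note it was 0.16, and Bckdha was called in neither. B3gnt8 has exons opposite 2386 of the exon bases of Bckdha, and with the strand setting not given, how reads of that stretch were counted is not known. The kinase gene Bckdk (chr7:127502939-127510162, plus strand) had 26.7, 29.7 and 30.9 CPM on chow and 23.8, 27.3 and 29.9 CPM after the fast. The 2 groups overlapped, with 3 fasted mice below the chow range, and the log2 fold change was -0.04 ± 0.05 (95% interval -0.15 to 0.07). With equal weight per column Bckdk was called lower, with a log2 fold change of -0.13. Because that alternative also changed the columns used, the normalization and the test, the part of the weighting alone was not tested for Bckdha or Bckdk.

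At 16 h, fasting was compared with chow in 6 mice each. None of the 10 members was called by edgeR, and 0 of all 29746 genes were (0%), with 3 members and 2267 genes at an unadjusted p under 0.05. DESeq2 called 19 genes in this comparison, 2 of them members (Prodh and Cbs), and limma with equal weight per column called 0. Chow and fasted mice overlapped in CPM in all 10 members, and 0.289% of all genes did not overlap. Prodh had 29.0, 31.6 and 34.5 CPM on chow and 33.3, 39.7 and 43.6 CPM after 16 h without food, with 5 of 6 fasted mice above all chow mice. The log2 fold change of Prodh was 0.34 ± 0.06 (edgeR adjusted p = 0.333), and by DESeq2 the adjusted p was 0.00686. Cbs had 30.6, 32.3 and 34.5 CPM on chow and 34.1, 37.7 and 43.4 CPM in the fasted mice, 5 of which were above all chow mice (log2 fold change 0.25 ± 0.05, edgeR adjusted p = 0.333). For Glul the chow values were 1081, 1303 and 1384 CPM and the fasted values 1279, 1463 and 1649.6 CPM, again with 5 of 6 above the chow range (log2 fold change 0.21 ± 0.06, edgeR adjusted p = 0.565). The other 7 members had log2 fold changes between -0.05 (Aldh4a1) and 0.07 (Aass), and none had an unadjusted p under 0.05.

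Within the fasted mice at 16 h, the same mouse stood at an end of the range in several genes. Mouse 8 was lowest in Prodh, Cbs, Glul, Phgdh, Aass and Bckdk, and mouse 11 was highest in Prodh, Cbs, Glul, Glud1, Aass, Bckdha and Bckdk and lowest in Gldc. Since counts were added up, deeper columns weigh more in the sum of a mouse. In mouse 8, 1 column held 62222181 of its 148051027 counts. That column was the lowest of this mouse in Prodh (28.7 CPM) and Cbs (26.5 CPM). A column of mouse 11 held only 55087 counts, and mouse 11 lacked a column above 40 CPM of Gldc. The other 5 fasted mice each had one (44.0 to 54.7 CPM), so that 1 region of mouse 11 is all but absent from its sum. Fasted mice 10 and 12 also had columns of only 2994 and 121967 counts. Chow mouse 4 had a column of 683173 counts, and all 30 HFD columns were within the depth limits. Mice 10, 11 and 12 were the highest fasted mice in Prodh (41.9, 43.6 and 42.8 CPM, against 33.3 to 37.6 CPM in mice 7 to 9). The part of these shallow columns, and of the deep column of mouse 8, in the differences at 16 h was not tested. Without mouse 11, no member was called between fasting and chow, as with it. Mouse 8 was also the lowest fasted mouse in the summed level of 12 oligodendrocyte markers, with 2894 CPM, and mouse 11 the highest, with 4927 CPM. In each of the 3 diets at 16 h, and in chow mice at 24 h, the mouse lowest in Glul was the lowest in this sum, at 3351 CPM on chow (mouse 6), 2699 CPM on HFD (mouse 18) and 4681 CPM on chow at 24 h (mouse 1443). In fasted mice at 24 h this was not so, as mouse 1453, the lowest in Glul, had a sum of 7172 CPM and the lowest sum, 4421 CPM, was in mouse 1454. The submitters noted a loss of weight for HFD mice 15 and 18. The part of cell type make-up in the levels of the members was not tested.

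HFD for 16 h was compared with chow in 6 mice each, and 0 members and 0 of 29746 genes (0%) were called by edgeR. An unadjusted p under 0.05 was found for 0 members and for 2914 genes, and DESeq2 called 5 genes and 0 members. All 10 members overlapped between HFD and chow, while 0.662% of all genes did not. Log2 fold changes ran from -0.05 (Aldh4a1) to 0.06 (Cbs) in 9 members. Prodh, with 29.9, 31.0 and 33.7 CPM on HFD, had a log2 fold change of 0.03 ± 0.06 (95% interval -0.10 to 0.15). For Glul, HFD mice had 1190, 1328 and 1388 CPM, and the interval was -0.07 to 0.18. The remaining member, Gldc, had 20.5, 22.7 and 31.3 CPM on HFD against 15.3, 19.9 and 26.8 CPM on chow, and its log2 fold change of 0.26 ± 0.17 (edgeR adjusted p = 0.614) had an interval from -0.07 to 0.60.

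Fasting and HFD were compared directly in the same 16 h mice. Of the members, Prodh alone was called, higher in the fasted mice, and over all 29746 genes 0.219% were called. Its log2 fold change was 0.31 ± 0.06 (edgeR adjusted p = 0.0460), 5 of 6 fasted mice were above all HFD mice, and the ranges overlapped. CPM did not overlap in 0 of 10 members and in 1.09% of all genes. The call of Prodh was lost without any single HFD mouse, without fasted mouse 9, 10, 11 or 12, with the 2 mice of a cage added up and with no filter on low counts, with adjusted p up to 0.411 over the alternatives. Cbs (0.19 ± 0.05, edgeR adjusted p = 0.114) and Glul (0.15 ± 0.06, edgeR adjusted p = 0.378) were each above all HFD mice in 5 of 6 fasted mice. This comparison and that with chow share the fasted mice, and the members were selected on diet differences in these mice.

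**Figure D2:**
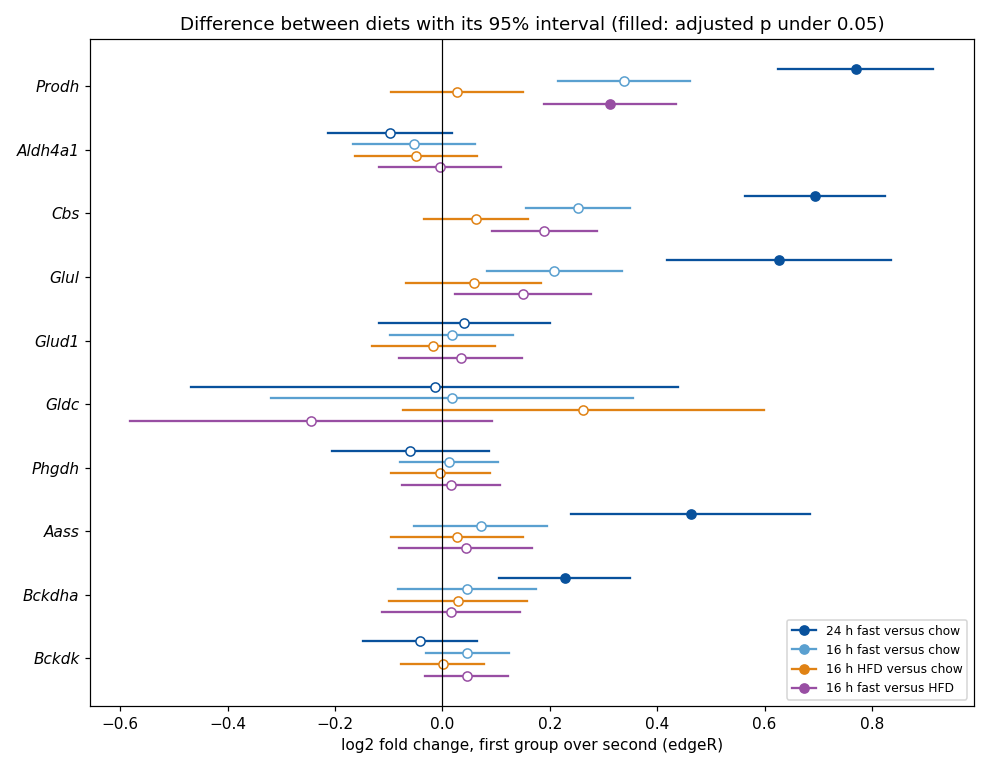
Log2 fold change (horizontal axis) of the 10 genes (vertical axis) in 4 comparisons of diets, with bars for the 95% interval and filled points for an edgeR adjusted p under 0.05. Prodh, Cbs and Glul lie at 0.63 to 0.77 at 24 h and at 0.21 to 0.34 for fasting against chow at 16 h, and 9 of the 10 HFD points lie between -0.05 and 0.06.

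The difference between the fasting effects of the studies was computed in 1 fit over all 37 mice. It was called by edgeR in 2 of 10 members, Cbs and Prodh, and in 1.7% of 30849 genes. The 24 h effect was above the 16 h effect by 0.44 ± 0.09 on the log2 scale in Cbs and by 0.43 ± 0.10 in Prodh. Glul had a difference of similar size and wider error, 0.42 ± 0.14 (edgeR adjusted p = 0.147), and Aass had 0.39 ± 0.15 (edgeR adjusted p = 0.231). Aldh4a1, Glud1, Gldc, Phgdh and Bckdk had differences between -0.08 and 0.03. Without chow mouse 5 or fasted mouse 7, 8 or 9 of the 16 h study the adjusted p of Prodh lay between 0.0528 and 0.0698, and with equal weight per column it was 0.142. The levels on chow of the 2 studies were also unlike for some members. Prodh had a median of 31.6 CPM on chow at 16 h and 24.4 CPM on chow at 24 h, and Gldc had 19.9 and 10.8 CPM, so the fold at 24 h starts from a lower level. Duration, housing, regions, sequencing run and mitochondrial share changed together between the studies, and their parts cannot be told apart.

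Single columns, each a brain region of 1 mouse that is not named by its heading, showed how widely the members vary within a brain. Among the 158 columns within the depth limits, Gldc had the widest range, with a highest column that was 7.21 times the lowest of the same chow mouse in the median at 16 h and 5.48 times at 24 h. Bckdk was the most even, with a median ratio of 1.23 and 1.14 on chow. Prodh had median ratios of 1.39 and 1.49, Cbs of 1.46 and 1.29, and Glul of 1.76 and 1.64. After 24 h of fasting, 37 of 38 columns were above the median chow column in both Prodh and Cbs, and 36 of 38 in Glul. Aass was above the median chow column in 34 of 38 columns, and 21 of 38 did so in Bckdha. Glud1 was evenly split, with 19 of 38 above. Fewer columns were above the median in Aldh4a1 and Gldc (11 of 38 each), Phgdh (8 of 38) and Bckdk (7 of 38), and 22 of 38 columns of Bckdk and 8 of 38 of Gldc were below every chow column. For the mice with the tube note, a column of each is given here by its values, since the headings name no region. In chow mouse 1423, a column had 43.3 CPM of Prodh, 43.4 of Cbs and 1991 of Glul, each the highest chow column. In fasted mouse 1454, a column had 24.9 CPM of Prodh, 24.7 of Cbs and 1588 of Glul. It was the lowest of that mouse in Prodh and Cbs but not in Glul, where another column had 1330 CPM. Whether these 2 columns belong together or hold the exchanged samples was not tested. Without both mice, 33 of 34 fasted columns were above the median chow column in Prodh, 34 in Cbs and 33 in Glul, and 15, 32 and 21 were above every chow column. After 16 h of fasting, 25 of 27 columns were above the median chow column in Prodh and 21 of 27 in both Cbs and Glul. Columns of a mouse are not replicates, and these counts are given without a test.

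**Figure D3:**
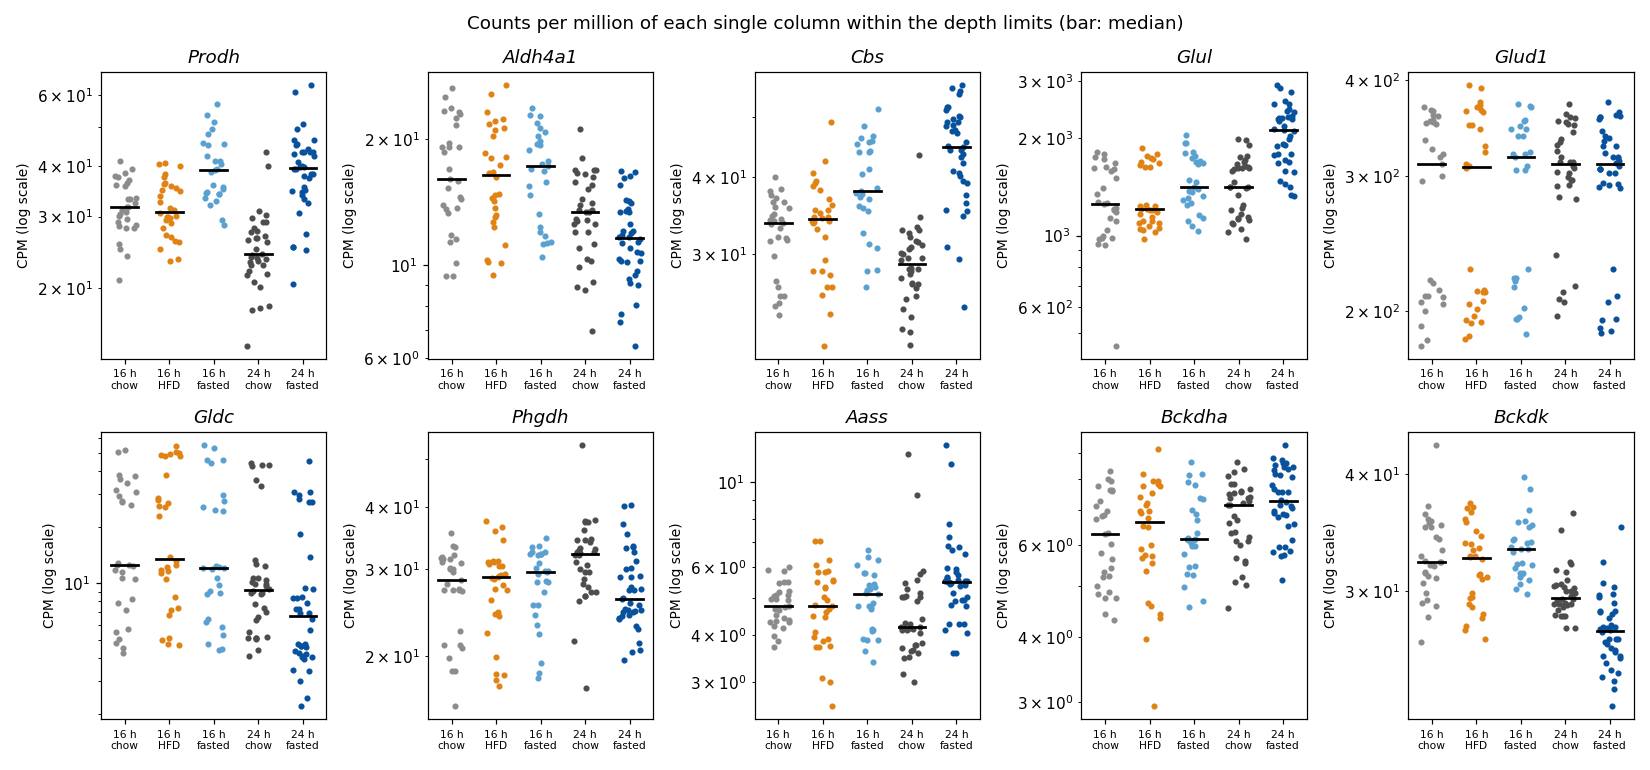
CPM (vertical axis, log scale) of single columns within the depth limits, by study and diet (horizontal axis), with the median as a bar. For Prodh, Cbs and Glul nearly the whole cloud of fasted columns at 24 h sits above the chow median, and Gldc spreads from 4.23 to 51.9 CPM over the chow columns at 16 h and from 4.08 to 44.1 CPM at 24 h.

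Which members went together over brain regions was described on the 63 chow columns within the limits, as Pearson's r of log2(CPM + 1) centred within each study. These columns come from 15 mice, so columns share mice, regions and depth. Prodh and Cbs were the most alike pair (r = 0.71), followed by Glud1 and Bckdha (0.68), Aldh4a1 and Glud1 (0.64) and Aldh4a1 and Bckdha (0.61). Prodh and Aldh4a1, which act one after the other on proline, had r = 0.45. Gldc ran opposite to Glud1 (-0.81), Glul (-0.58) and Bckdha (-0.52). Against the mean of 12 astrocyte markers, r was 0.82 for Glud1, 0.75 for Aldh4a1, 0.60 for Cbs, 0.59 for Bckdha and 0.47 for Prodh. It was 0.46 for Phgdh, 0.43 for Bckdk, 0.27 for Glul, -0.05 for Aass and -0.66 for Gldc. Prodh had about the same value with endothelial and mural markers (0.48). Glul was closer to the neuron markers (0.73) and the oligodendrocyte markers (0.52). Phgdh had its highest values with oligodendrocyte progenitor (0.67) and oligodendrocyte (0.64) markers, and Aass with ependyma and choroid plexus markers (0.66). In bulk tissue, fewer cells of a type and less RNA per cell cannot be told apart.

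**Figure D4:**
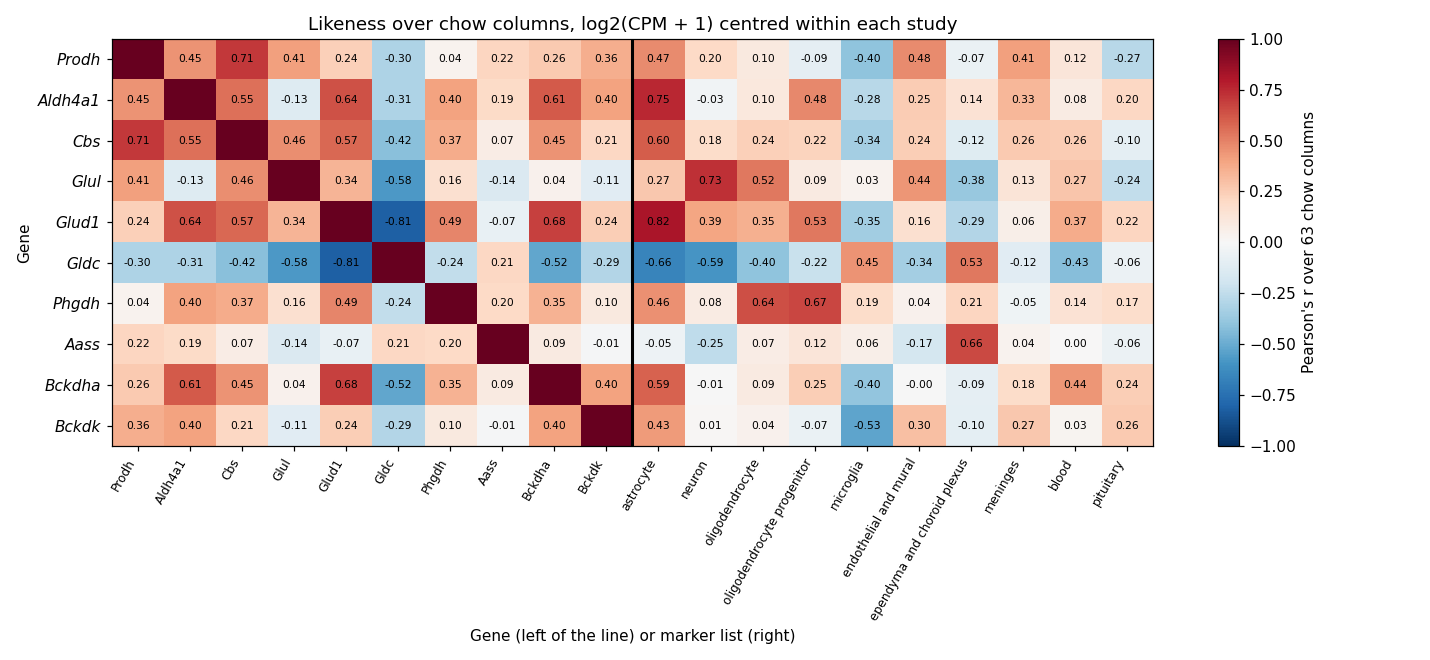
Pearson's r over 63 chow columns between the 10 genes (left of the line) and between each gene and the mean of 10 marker lists (right of it), from -1 (blue) to 1 (red). The red cell of Prodh and Cbs (0.71) and the blue row of Gldc, down to -0.81 with Glud1, stand out.

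Among 13875 other genes with a mean of at least 2 on the log2 CPM scale, the 3 most like each member over these columns were as follows. Nat8l (r = 0.87), Kcnh5 (0.83) and 5730409E04Rik (0.82) were nearest to Glul. Prdm8 (0.96), Bhlhe22 (0.94) and Tcf4 (0.94) were nearest to Gldc, and Nrsn2 (0.96), Klhl13 (0.96) and Insyn2b (0.95) to Glud1. B3galnt2 (0.82), Acp6 (0.81) and Arhgef1 (0.81) were nearest to Prodh, and H13 (0.90), Anapc4 (0.90) and Prpf6 (0.90) to Aldh4a1. For Cbs these were Gm26703 (0.74), Ttc28 (0.74) and Carmil1 (0.73), and for Phgdh Lap3 (0.82), Gna12 (0.80) and Kcnk13 (0.79). Slc2a12 (0.75), Cab39l (0.74) and Col9a3 (0.69) were nearest to Aass. Bckdha was most like E2f6 (0.76), Prkra (0.76) and Csk (0.75), and Bckdk had no gene above 0.69 (Plekhh3 and Pold1 at 0.69, Eml3 at 0.68).

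Other genes of amino acid metabolism were listed by pathway, 162 in all, of which 158 were tested at 24 h. After 24 h of fasting, 34 of 158 were called by edgeR, 21 higher and 13 lower, and 21.5% compares with 11.4% of all genes. Genes called higher and genes called lower stood side by side in each of the 6 lists. In the proline, arginine and creatine list, 3 of 30 rose and 2 fell. Spermine oxidase (Smox) rose from a median of 42.9 to 66.8 CPM (log2 fold change 0.80 ± 0.10), Sat1, which acetylates polyamines, by 0.30 ± 0.09 and Azin1, an activator of ornithine decarboxylase, by 0.27 ± 0.08. Gatm, which opens creatine synthesis, fell from a median of 126.9 to 81.9 CPM (-0.54 ± 0.12), and L3hypdh fell by 0.30 ± 0.09.

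In the list of methionine, cysteine, taurine and glutathione, to which Cbs belongs by function, 7 of 33 genes rose and 3 fell. Gnmt, a glycine methyltransferase, rose from a median of 0.951 to 1.27 CPM (log2 fold change 0.69 ± 0.17). Its level was low and its groups overlapped, at 0.589 to 1.17 CPM on chow and 1.02 to 2.83 CPM after the fast. Cth, the enzyme after Cbs in transsulfuration, rose by 0.41 ± 0.10, from a median of 2.62 to 3.37 CPM. Mat2a, which makes S-adenosylmethionine, rose by 0.31 ± 0.05, from 122.1 to 145.7 CPM. Thiosulfate sulfurtransferase (Tst) fell from a median of 20.3 to 8.68 CPM (-1.07 ± 0.11) and the monooxygenase gene Fmo1 by 0.35 ± 0.09. In the serine, glycine and folate list, 4 of 27 rose and 1 fell. Psat1, the step after Phgdh in serine synthesis, rose from a median of 81.4 to 114.9 CPM (0.51 ± 0.09), Shmt1 rose by 0.45 ± 0.08 and Mthfd1l by 0.23 ± 0.06, while Aldh1l2 fell by 0.38 ± 0.11.

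Of 22 genes for lysine and tryptophan, 2 rose and 3 fell. Ddc, the decarboxylase of dopamine and serotonin synthesis, rose from a median of 17.7 to 27.6 CPM (log2 fold change 1.05 ± 0.25) and Kyat3, a kynurenine aminotransferase, by 0.49 ± 0.08. The lysine-side genes Pipox (-1.11 ± 0.13), Aasdh (-0.28 ± 0.05) and Hykk (-0.25 ± 0.07) fell. Of 24 branched-chain and propionate genes, 3 rose and 2 fell. Aldh6a1 rose by 0.37 ± 0.05, Dbt, another subunit of the complex that holds Bckdha, by 0.28 ± 0.06 and Ivd by 0.18 ± 0.04, whereas Mmaa fell by 0.23 ± 0.04 and Hibch by 0.18 ± 0.04. For glutamate, glutamine, GABA, aspartate and alanine, 2 of 22 rose and 2 fell. Gpt2, the mitochondrial alanine aminotransferase, rose from a median of 51.2 to 75.4 CPM (0.61 ± 0.07) and Ppat by 0.18 ± 0.06, and Cad (-0.31 ± 0.05) and Asrgl1 (-0.25 ± 0.08) fell.

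At 16 h, 0 of these genes were called by edgeR or by DESeq2 between fasting and chow or between HFD and chow. Between fasting and HFD, P4ha1, a subunit of the prolyl hydroxylase of collagen, was the single gene called of 159 tested, against 0.219% of all genes. It was lower in fasted mice, at a median of 36.5 CPM against 47.5 CPM on HFD (log2 fold change -0.46 ± 0.07, edgeR adjusted p = 0.0193), and it was no longer called with cage sums. The difference between the fasting effects of the 2 studies was called for 8 of 160 listed genes, against 1.7% of all genes, 6 with a higher and 2 with a lower effect at 24 h. Gpt2 (0.53 ± 0.09), Smox (0.63 ± 0.13), Gnmt (0.90 ± 0.23), Csad (0.32 ± 0.08), Mat2a (0.32 ± 0.07) and Aldh6a1 (0.30 ± 0.07) were higher, and Tst (-0.85 ± 0.14) and Pipox (-0.80 ± 0.22) lower.

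**Figure D5:**
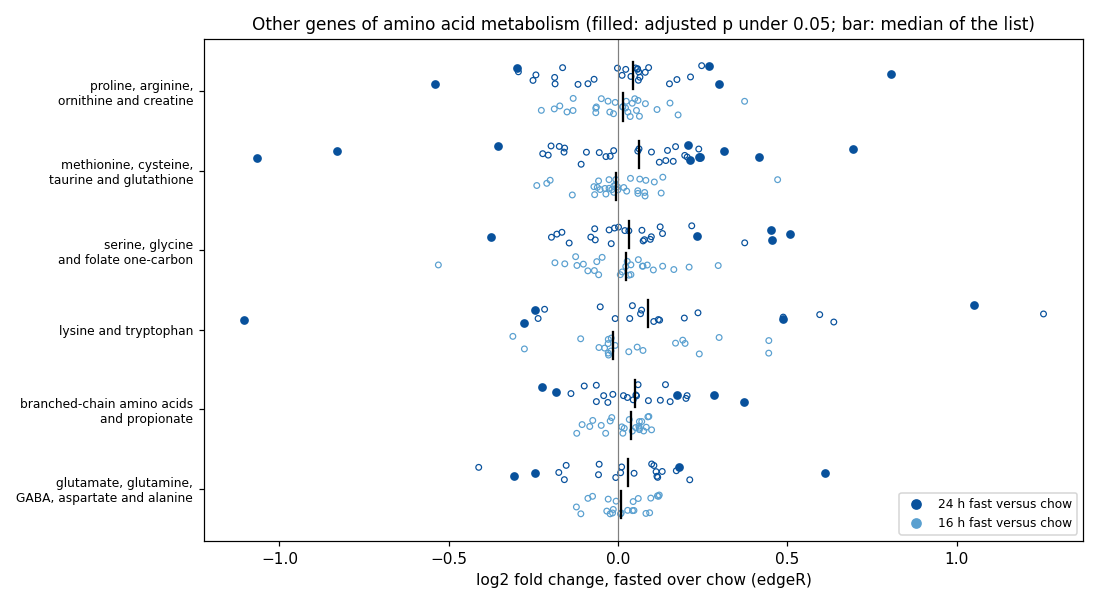
Log2 fold change (horizontal axis) of fasted over chow mice at 24 h (dark) and 16 h (light) for the other amino acid genes in 6 lists (vertical axis). Each point is a gene, filled points have an edgeR adjusted p under 0.05 and bars are medians of the lists. At 24 h, 34 of 158 points are filled on both sides of 0, and at 16 h none is.

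Marker genes of cell types moved at 24 h beside the members. Among 12 markers of astrocytes, the cells in which Glul is best known, Fgfr3 (log2 fold change 0.76 ± 0.09) and Gjb6 (0.70 ± 0.11) rose and Aqp4 (-0.85 ± 0.10) and Gja1 (-0.25 ± 0.07) fell, and the summed level of the 12 ran from 5178 to 5922 CPM on chow and from 5241 to 6554 CPM after the fast. None of 12 neuron markers was called, and their sum ran from 5289 to 6495 CPM on chow and from 5314 to 6599 CPM after the fast. Mobp rose and Opalin and Ugt8a fell among 12 oligodendrocyte markers. Pdgfra and Vcan rose among 7 oligodendrocyte progenitor markers, while the median log2 fold change of the 7 was -0.15 and their sum had a median of 350.5 CPM on chow and 321.8 CPM after the fast. In microglia and in endothelial and mural cells, 5 of 10 markers fell and 0 rose, and 3 of 7 meningeal markers fell. Of all genes, 5.62% were called lower and 5.78% higher. The summed level of the 7 meningeal markers went the other way, with a median of 723.6 CPM on chow and 833.1 CPM after the fast. None of the markers of ependyma and choroid plexus (9), blood (5) or pituitary (7) was called. The part of these markers in the differences of the members was not tested.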

How the data were processed

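Raw counts per Ensembl gene, not normalized, were deposited by the authors, who used STAR 2.7.3a and the GRCm39 genome. The annotation release and the strand setting are not given in the sources used here. For each of 37 mice the 5 columns under its heading, within the depth limits or not, were added up, since the headings name the mouse. Diet comparisons used edgeR's quasi-likelihood test (edgeR 4.0.16, R 4.3.3, with filterByExpr, TMM and estimateDisp) and Benjamini-Hochberg adjustment over all genes tested. Calls required an adjusted p under 0.05. All 16 h mice entered 1 fit. The standard error is the log2 fold change divided by the square root of F, and 95% intervals extend 1.96 standard errors to either side. Fold changes of the main fits use TMM factors, and CPM uses total counts. Equal weight per column is the limma alternative, on the mean over the columns of a mouse within the depth limits, without TMM factors. DESeq2 1.42.0 and limma 3.58.1 (log2(CPM + 1)), other normalization and filters, deep columns alone, cage sums and leaving out mice served as alternatives. The code was tested on simulated data. Symbols, exon lengths and loci come from GENCODE for GRCm39, which named 56310 of 57010 genes. Mice are separate animals, but those of a cage at 16 h share it. Depth ran from 57962237 to 161577364 counts per mouse.

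The members and the lists were chosen with earlier results of these data known. Named genes are all members, the called markers, the 3 genes most like each member, and, per pathway list and direction, up to 3 called genes with the largest fold change and a mean log2 CPM no lower than 0. The pathway lists leave out 1 name that matched no symbol. The levels of 20 and 40 CPM for columns of Gldc, and the counts of columns without mice 1423 and 1454, were chosen after seeing the data.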

Additional observations from a re-analysis of the deposited data

Results flagged for a closer look

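Of 50 sets of mice (10 genes in 5 groups) tested for a mouse far from the others by Dixon's criterion, 0 had one, where chance gives about 1 in 20. The fasting effect differed between the studies, by a test of the difference itself over all 37 mice, in Cbs and in Prodh. For Cbs, the 24 h effect exceeded the 16 h effect by 0.44 on the log2 scale (edgeR adjusted p = 0.00518, range 0.000786 to 0.0197 over 38 alternatives), and 10 of 10 fasted mice at 24 h and 5 of 6 at 16 h were above all chow mice of their study. For Prodh the difference was 0.43 (edgeR adjusted p = 0.0186, range 0.00107 to 0.142), with the same numbers of mice above their chow range. Both values rest on diet comparisons known when the genes were chosen, and duration, housing, regions and sequencing run changed with the study and cannot be told apart.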

How the results depend on the processing

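The 24 h log2 fold changes of Prodh (0.62 to 0.85), Cbs (0.59 to 0.74) and Glul (0.53 to 0.68) stayed higher and called in all 27 alternatives. Without the 5 mice with a tissue note, which leaves fewer samples, 2134 genes and 3 members were called at 24 h. Leaving out single mice at 24 h gave 2685 to 3725 genes and 5 members each time. DESeq2 called 19 genes and 2 members for fasting against chow at 16 h, 5 genes for HFD against chow, and 354 genes and 5 other amino acid genes for fasting against HFD. For fasting against HFD, cage sums (fewer samples) left 0 genes, 0 other amino acid genes and 0 members. Equal weight per column gave 135, 3 and 2 there, and no filter on low counts gave 26 genes and 0 members. Leaving out single mice gave 0 to 101 genes, 0 to 2 other amino acid genes and 0 to 1 members. The difference between the studies, whose alternatives were chosen after seeing the data like the one without mice 1443 and 1453, had 343 to 633 genes, 4 to 10 other amino acid genes and 1 to 2 members without single mice, and 1 member with equal weight per column. The fewest genes, 343, were called without fasted mouse 8 of the 16 h study. Where the number of samples did not change, the cause was not tested. No paired analysis was possible because no animal number recurs in 2 groups. Depth limits Aass most, and counting intervals would cover counting error only.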
